A study of Mus musculus with 66 samples.

Results

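The cerebellum and the cortex of the same DBA/1J wild-type mice were compared across all genes, of which 17329 of 45706 in the files had enough counts to be tested. The comparison took its members by the labels alone: 6 libraries of 66 in the series, of which 3 came from cerebellum and 3 from cortex, each pair dissected from 1 animal. The mice carried no *Rorb* mutation (genotype DBA-WT), received no treatment that the labels name and were 7 weeks old. Animals 1 and 2 were female and animal 3 was male. Hippocampus of the same 3 animals was used to place the values, and cortex and cerebellum of 3 other mice of the same labelled age, homozygous for the spontaneous *Rorb* allele h5 on the DBA/1J background (H5/H5 in the labels), were used as a repeat of the region comparison. The h5 mutation is a spontaneous loss of the start codon of 1 isoform of *Rorb*, and not a targeted knockout. By its sex-linked genes the H5/H5 animal 3 was male against its label, with 0 CPM of *Xist* and 60.1 CPM of *Ddx3y* in cortex, so results from the H5/H5 mice are also given without it, for lists and single genes as a choice made after the data were seen. Sex-linked genes of the 3 DBA/1J animals went with their labels. The series was made to compare these mutants with wild type, and the difference between regions within wild-type mice is the question taken here.

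The cerebellum holds most of the neurons of the brain in a few repeating cell types. Small glutamatergic granule cells send parallel fibres to Purkinje cells, the large GABAergic neurons that are the only output of the cerebellar cortex, and local GABAergic and glycinergic interneurons and Bergmann glia complete the circuit. The cortex is built from layers of glutamatergic projection neurons and several classes of GABAergic interneurons, which derive from the embryonic telencephalon, while the cerebellum derives from the anterior hindbrain. RNA of a dissected region is the sum over all its cells, so fewer cells of a type and less RNA per cell cannot be told apart.

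Values are given as CPM (counts scaled to a common library size) for single libraries, in the order of animals 1, 2 and 3, and as log2 fold changes of cerebellum over cortex with their standard error. A gene is called higher or lower where the paired edgeR test across 17329 genes gave an adjusted p under 0.05. Total expected counts lay between 35248488 and 43477472 in the cerebellum libraries and between 37546953 and 43558252 in the cortex libraries. The lowest correlation of log2 CPM across genes was 0.9951 within cerebellum and 0.9877 within cortex, and the highest between the regions was 0.9128. Among genes at 10 CPM or more, the median SD of log2 CPM over the 3 animals was 0.115 in cortex, 0.073 in cerebellum and 0.0705 in hippocampus. The cortex libraries were thus the more variable side of the comparison. No pair of replicate libraries held identical values. The labels' tissues were borne out by their markers: *Pcp2*, which marks Purkinje cells, stood at 155, 176 and 172 CPM in cerebellum and at 0, 0.0561 and 0.0273 CPM in cortex, and *Gabra6*, which marks granule cells, stood at 657, 668 and 760 CPM against 0.14, 0.0561 and 0 CPM.

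The promoters of 4 genes with some of the largest differences are shown, because these genes were among those that differed most between the regions. Each is the 250 bases before the RefSeq start (GRCm38.p6), 5′ to 3′ on the strand of the gene, with the E-box CANNTG, a motif that reads the same on both strands and that neuronal basic helix-loop-helix factors bind, in capitals. *Gabra6* (chr11:42321073-42321322, minus strand) and *Cbln3* (chr14:55884257-55884506, minus strand) were among the highest in cerebellum, and *Nrgn* (chr9:37552746-37552995, minus strand) and *Icam5* (chr9:21031788-21032037, plus strand) among the lowest.
Gabra6: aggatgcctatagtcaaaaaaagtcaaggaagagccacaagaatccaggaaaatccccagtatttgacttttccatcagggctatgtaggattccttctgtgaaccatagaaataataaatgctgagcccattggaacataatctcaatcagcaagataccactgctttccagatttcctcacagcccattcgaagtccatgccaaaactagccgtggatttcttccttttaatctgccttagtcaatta
Cbln3: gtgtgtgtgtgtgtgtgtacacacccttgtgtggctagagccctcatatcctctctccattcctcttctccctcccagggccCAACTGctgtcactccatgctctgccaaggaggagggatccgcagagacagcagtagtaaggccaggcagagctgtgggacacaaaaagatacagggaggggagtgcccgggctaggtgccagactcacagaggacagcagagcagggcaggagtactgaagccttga
Nrgn: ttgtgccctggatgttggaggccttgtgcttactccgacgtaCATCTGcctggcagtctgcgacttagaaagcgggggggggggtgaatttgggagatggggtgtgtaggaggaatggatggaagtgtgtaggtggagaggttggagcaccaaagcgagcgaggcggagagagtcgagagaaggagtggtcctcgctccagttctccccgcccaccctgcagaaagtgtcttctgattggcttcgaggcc
Icam5: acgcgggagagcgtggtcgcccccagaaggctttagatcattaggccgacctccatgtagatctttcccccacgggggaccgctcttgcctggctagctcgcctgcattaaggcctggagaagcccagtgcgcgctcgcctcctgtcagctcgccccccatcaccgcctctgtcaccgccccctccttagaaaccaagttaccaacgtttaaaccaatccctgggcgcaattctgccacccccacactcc
The E-box was found in *Cbln3* and *Nrgn* and not in *Gabra6* or *Icam5*. It was in 66.2% of all 32851 promoters of this length, in 66.8% of the 256 promoters of genes over 8-fold higher and in 68.6% of the 577 promoters of genes over 8-fold lower. The presence of these letters is a description of the sequence and not of binding.

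Of the 17329 genes tested, 9926 differed between the regions (57.3%). In cerebellum 5030 were lower (29.0%) and the others higher (28.3%). With the scaling of the main test falls were larger than rises: the median size was 1.00 on the log2 scale among lower genes and 0.67 among higher genes. These medians were not taken with the other scalings. Over 8-fold differences were found in 707 lower and 322 higher genes, and over 32-fold differences in 269 and 108. At an unadjusted p under 0.05 the count was 10712. The 3 libraries of each region did not overlap for 11355 genes (65.5%). The near-equal split rests on the scaling: edgeR called 6195 higher and 4201 lower with library size only (59.6% of calls higher), and limma called 6779 and 2945 on log2(TPM + 1) (69.7% higher). The median of all genes moved from 0.01 to 0.14 and to 0.24 with these scalings, so a small difference is to be read against that shift. Among protein-coding genes 29.6% of 14774 were higher and 30.2% lower. Of 1064 long noncoding RNAs 22.8% were higher and 27.8% lower.

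**Figure D1:**
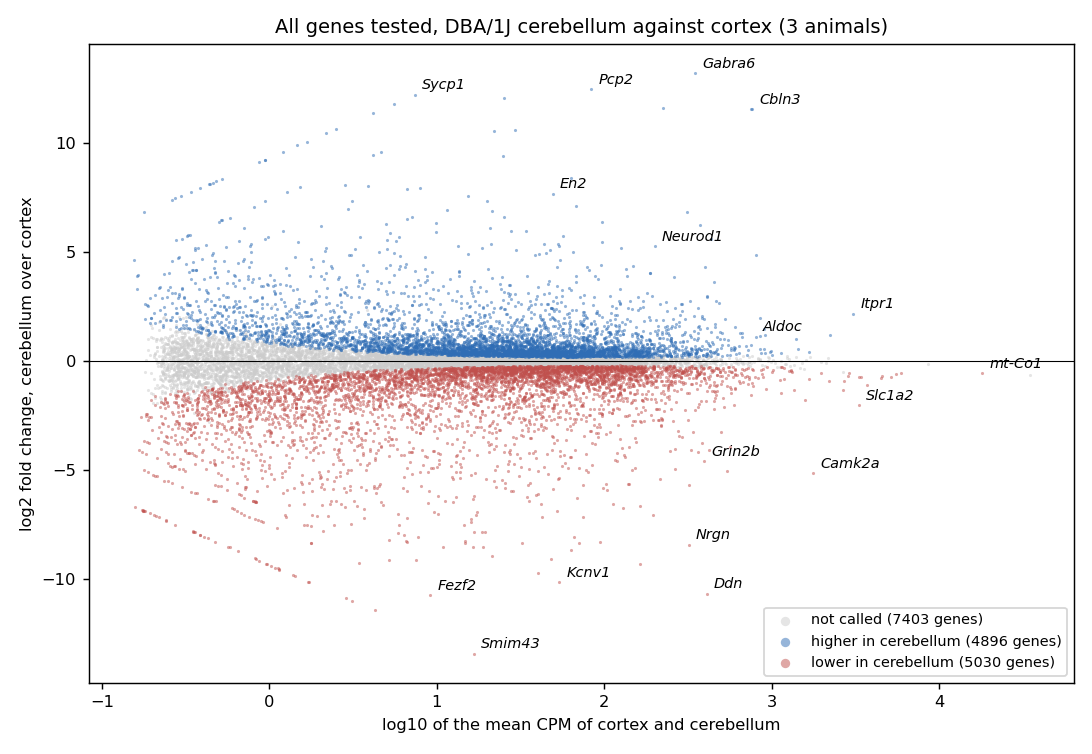
All 17329 genes tested: the x axis is the log10 of the mean CPM of both regions and the y axis the log2 fold change of cerebellum over cortex. Blue points are the higher genes (28.3%), red points the 5030 lower genes (29.0%) and grey points the rest. Points along straight edges are genes with 0 counts in a region, whose fitted fold change is no bound.

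The genes with the largest rises were nearly silent in cortex. *Gabra6*, the alpha6 subunit of the GABA-A receptor that granule cells use, had a log2 fold change of 13.22 ± 0.27 (adjusted p = 2.2e-08). *Pcp2* counted 3 fragments in all cortex libraries together against 21223 in cerebellum, a ratio of 6460 (95% exact interval 2210 to 31329, counting error only). *Fat2*, a giant cadherin of granule cell parallel fibres, had 1621, 1516 and 1397 CPM in cerebellum against 0.396, 0.421 and 0.654 CPM in cortex (11.58 ± 0.19, adjusted p = 1.66e-08). In none of these genes did the regions come near to overlapping, which follows from their choice by fold and is a description only.

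*Cbln3*, a secreted partner of *Cbln1* at the synapse between parallel fibres and Purkinje cells, stood at 1571, 1511 and 1528 CPM against 0.582, 0.505 and 0.409 CPM (11.56 ± 0.16, adjusted p = 1.58e-08). *Cnpy1*, a secretory pathway protein tied to fibroblast growth factor signalling at the boundary of midbrain and hindbrain, stood at 450, 437 and 460 CPM against 0.233, 0.0841 and 0.0818 CPM (11.63 ± 0.20). Its neighbour on chromosome 5 is *En2*, the homeobox factor of that boundary, with 96.5, 98.5 and 98.6 CPM against 0.535, 0.617 and 0.245 CPM (7.69 ± 0.18). On GRCm38, *En2* lies at chr5:28165696-28172190 and *Cnpy1* at chr5:28200819-28245788, and both were higher, *Cnpy1* by more. *Dao*, the oxidase that degrades D-serine, counted 6340 fragments in cerebellum and 1 in cortex, a ratio of 5790 (95% exact interval 1039 to 228717).

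Genes known mainly from other tissues were also in this group. *Sycp1*, a protein of the synaptonemal complex of meiosis, had 14, 12.4 and 18.2 CPM in cerebellum and 0 counts in cortex, at least 572-fold higher by a floor of 3 counts over the cortex group. *Crtam*, a cell adhesion protein first known from T cells, had 62.5, 54.6 and 58.2 CPM against 0.0233, 0.0841 and 0 CPM (10.59 ± 0.25). *Il22*, an interleukin gene, had 13.4, 15.8 and 18.7 CPM against 0.0233, 0.112 and 0.0545 CPM (7.94 ± 0.26). It has a close copy, *Il22b*, with a mean of 1.88 CPM in cerebellum, and how fragments were shared between the copies is uncertain. *Nrk*, a protein kinase gene, counted 5570 fragments against 3, a ratio of 1696 (580 to 8224).

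At the other end, *Smim43*, a gene for a small membrane protein, had 30.4, 39.8 and 29.9 CPM in cortex and 0 counts in cerebellum, at least 1396-fold lower. *Ddn* (dendrin, a protein of dendritic spines) had 879, 801 and 772 CPM in cortex against 0.572, 0.199 and 0.768 CPM (-10.66 ± 0.26, adjusted p = 4.38e-08). *Nrgn* (neurogranin, which binds calmodulin in the dendrites of forebrain neurons) had 650, 735 and 525 CPM against 1.31, 2.54 and 1.79 CPM (-8.41 ± 0.17). *Ddn* and *Nrgn* were thus abundant in cortex and close to absent in cerebellum in every animal.

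*Gda*, guanine deaminase, had 281, 332 and 362 CPM in cortex against 0.763, 0.199 and 0.633 CPM (-9.30 ± 0.26). *Icam5*, an adhesion protein also named telencephalin, had 106, 131 and 142 CPM against 0.327, 0.265 and 0.362 CPM (-8.64 ± 0.13). *Bmp3*, a bone morphogenetic protein, had 34.5, 32.6 and 31.5 CPM against 0.136, 0.0882 and 0.0452 CPM (-8.51 ± 0.20). *Lamp5*, a membrane protein of a class of cortical interneurons and of upper-layer neurons, was among the most certain falls with 157, 163 and 128 CPM against 1.28, 1.13 and 0.791 CPM (-7.15 ± 0.11, adjusted p = 1.66e-08). *Crhbp*, which binds corticotropin-releasing hormone, counted 1744 fragments in cortex and 3 in cerebellum, a ratio of 637 (218 to 3090). The long noncoding RNA 9130024F11Rik was also among the largest falls (-8.52).

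**Figure D2:**
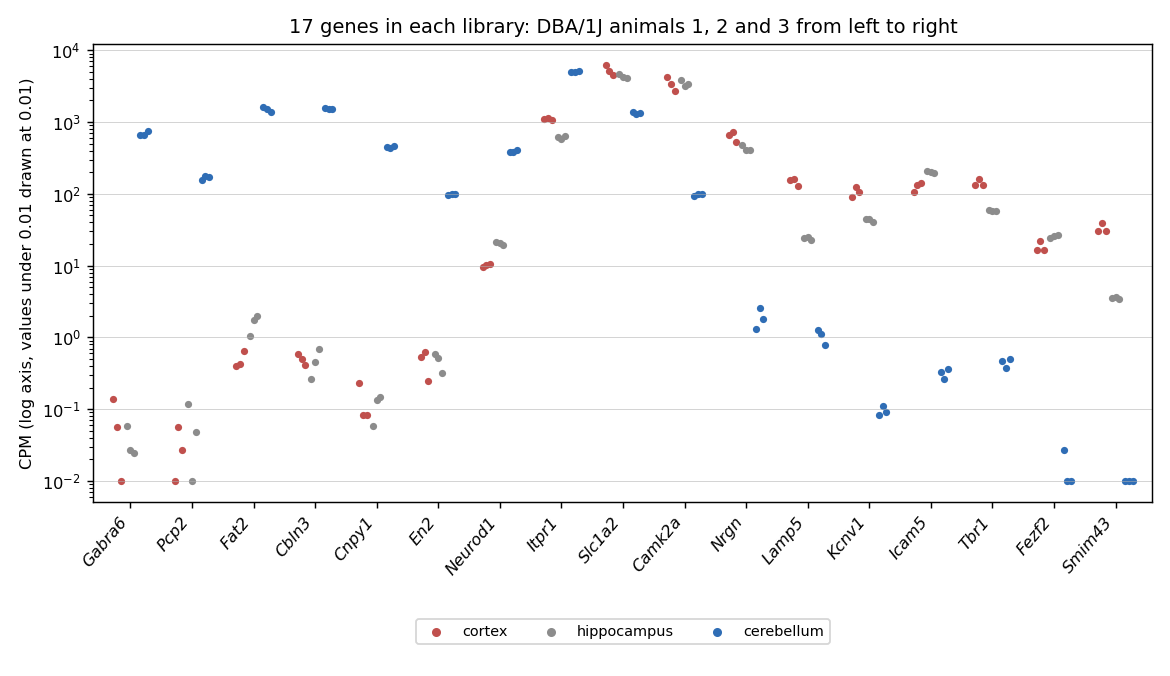
CPM on a log axis of 17 genes in the 3 libraries each of cortex, hippocampus and cerebellum of the DBA/1J animals, with values under 0.01 drawn at 0.01. In each of the genes, all of which were called, the 3 cerebellum values lie apart from the cortex values. For most genes hippocampus lies near cortex. *Smim43* at 3.58 CPM and *Lamp5* at 24.1 CPM on average in hippocampus lie between the regions.

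Genes present in a single region of the pair were counted at a mean of 10 CPM or more in a region and under 0.5 CPM in the other. Of the 17329 genes tested, 29 were by this measure present in cerebellum alone of this pair and 52 in cortex alone. The count depends on the threshold: *Skor2* and *Emx2*, with 0 counts in the other region but under 10 CPM, fall outside it. All 29 and all 52 had the same call in the H5/H5 mice, with and without their animal 3. Over all called genes tested there, 4383 of 4854 higher and 4598 of 4960 lower genes had the same call. The 29 and 52 were chosen for a large difference, which makes a same call likely. Of the 29 cerebellar genes, 24 were also under 0.5 CPM in hippocampus and none reached 10 CPM there. They included the transcription factor genes *Hes3* (16.5, 23.0 and 18.9 CPM in cerebellum), *Barhl2*, *Lhx5*, *Nhlh2* and *Uncx*, the water channel gene *Aqp6* (18.8, 20.2 and 19.6 CPM), the receptor gene *Il20rb* (24.99, 33.2 and 33.45 CPM) and *Comp*, a protein of cartilage matrix (9.67, 10.1 and 11.4 CPM). Of the 52 cortical genes, none was under 0.5 CPM in hippocampus and 34 reached 10 CPM there. Examples are the relaxin receptor gene *Rxfp1* (40.1, 33.4 and 26.3 CPM in cortex), *Nr2e1*, a nuclear receptor of forebrain development (13.8, 13.6 and 11.8 CPM), *Doc2a*, a calcium sensor of transmitter release (30.6, 34.3 and 30.1 CPM), and *Rgs14*, whose hippocampal level of 64.7, 56.1 and 55.0 CPM was above the 25.6, 29.7 and 33.4 CPM of cortex. Not all of the 52 were even over the cortices of animals 1, 2 and 3. *Drd1* (10.45, 27.1 and 60 CPM), *Tac1* (5.91, 14.7 and 32 CPM) and *Lrrc10b* (1.09, 16.1 and 24.4 CPM) rose in the order of the striatal sum, given with the choroid plexus genes. *Cdhr1* was high in animal 3 (4.37, 3.37 and 32.4 CPM).

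The developmental transcription factors of each territory kept apart in the adult tissue. Of 21 factors known for hindbrain or cerebellar patterning, 20 passed the filter on low counts. All 20 were higher in cerebellum (beside 28.3% over all genes), with a median of 5.60, beside a median of 0.01 over all genes. Members with 0 or few counts in cortex, such as *Barhl1* and *Pax3*, passed the filter through cerebellum alone. Their direction was thus set in advance, and the count is a description only. The engrailed gene *En1* was low even in cerebellum (2.45, 2.18 and 2.53 CPM). *Barhl1*, a homeobox factor of the granule lineage, had 12.2, 11.4 and 9.61 CPM against 0 counts in cortex (at least 422-fold higher). *Zic1*, a zinc finger factor of the granule lineage, was the most abundant, with 833, 819 and 892 CPM against 17.3, 12.5 and 23.8 CPM (5.60 ± 0.17, adjusted p = 9.88e-08). *Pax3*, which is known from the dorsal neural tube, counted 979 fragments against 3, a ratio of 298 (102 to 1448). The Iroquois genes *Irx1*, *Irx2*, *Irx3* and *Irx5* rose by between 4.37 and 5.68. *Gbx2* was the member that did not pass the filter, at under 0.25 CPM in each of the 6 libraries. None of the 39 Hox genes in the files, which pattern more posterior hindbrain and spinal cord, passed the filter either.

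Of 29 telencephalic factors, 28 were tested, with 24 lower (85.7%, beside 29.0% over all genes) and 3 higher (10.7%, beside 28.3%) and a median of -5.56. *Emx2*, a homeobox factor of the cortical primordium, had 7.44, 5.36 and 4.39 CPM in cortex and 0 counts in cerebellum (at least 245-fold lower). *Tbr1*, a T-box factor of deep-layer and other early-born cortical neurons, had 133, 160 and 133 CPM against 0.463, 0.375 and 0.497 CPM (-8.32 ± 0.14). The interneuron factors *Dlx1* and *Lhx6* had log2 fold changes of -6.44 and -5.07. The 3 members that were higher in cerebellum were *Neurod2* (0.65 ± 0.08), *Cux1* (0.51 ± 0.08) and *Bhlhe22* (1.19 ± 0.10). Each of the 3 was also above 0 with the other scalings.

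The basic helix-loop-helix factors of the NEUROD family changed places. *Neurod1*, known from the differentiation of granule cells, made up 84.1% ± 1.28 (SD, n = 3) of the family's summed TPM (a level per transcript length) in cerebellum and 7.88% ± 1.26 in cortex. *Neurod6*, of cortical and hippocampal pyramidal neurons, made up 57.7% ± 0.60 in cortex and 0.838% ± 0.147 in cerebellum. In CPM, *Neurod1* had 9.65, 10.2 and 10.4 in cortex and 382, 386 and 405 in cerebellum, and *Neurod6* had 59.8, 63.6 and 48.8 against 2.75, 2.58 and 3.66. The rise of *Neurod1* was among the most certain of all genes (5.27 ± 0.09, adjusted p = 1.66e-08).

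Among markers of Purkinje cells, 19 of 19 were higher in cerebellum, beside 28.3% over all genes, with a median of 4.04. They did not all start from silence in cortex. *Ppp1r17*, a phosphatase inhibitor also called G-substrate, had 124, 119 and 138 CPM against 0.256, 0.308 and 0.573 CPM, and *Lhx1*, a LIM homeobox factor, 52.7, 46.9 and 48.9 CPM against 0.14, 0 and 0.0545 CPM. *Skor2*, a corepressor of Purkinje cell differentiation, had 0 counts in cortex and 7.93, 8.98 and 8.16 CPM in cerebellum (at least 322-fold higher). *Calb1* (calbindin, a calcium buffer also found in cortical neurons) had 127, 132 and 136 CPM in cortex and 815, 791 and 924 CPM in cerebellum (2.67 ± 0.09), and *Pcp4*, a calmodulin regulator, had 119, 148 and 162 CPM against 236, 255 and 266 CPM (0.82 ± 0.08, the smallest rise of the list). *Aldoc*, the glycolytic enzyme that marks zebrin stripes and is also made by astrocytes, had 1070, 1097 and 1133 CPM in cerebellum against 634, 478 and 414 CPM (1.13 ± 0.14).

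All 14 granule cell markers were higher, beside 28.3% over all genes, with a median of 4.79. *Cbln1*, the synaptic organiser released from parallel fibres, had 633, 619 and 596 CPM against 4.37, 5.75 and 6.13 CPM (6.83 ± 0.14). *Gabrd*, the delta subunit of extrasynaptic GABA-A receptors, showed the smallest rise, from 62.2, 61.4 and 53.3 CPM to 147, 155 and 153 CPM (1.36 ± 0.08). Both unipolar brush cell markers were higher: *Eomes* had 48, 61 and 63.6 CPM against 0.628, 0.168 and 5.67 CPM, where cortex of animal 3 was the high library, and *Lmx1a* rose from at most 0.281 CPM to 2.72, 2.14 and 1.54 CPM. Of 4 Bergmann glia genes all 4 were higher, led by *Gdf10*, a secreted factor, at 128, 129 and 123 CPM against 4.54, 3.39 and 3.9 CPM (4.99 ± 0.11).

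Markers of cerebellar GABAergic and glycinergic interneurons were mixed, with 5 of 8 higher (62.5%, beside 28.3% over all genes) and 2 lower. *Slc6a5*, the glycine transporter of Golgi cells and other glycinergic neurons, had 42.3, 36.8 and 39.6 CPM against 0.349, 0.252 and 0.109 CPM (7.34 ± 0.20). *Tfap2b*, an AP-2 factor of GABAergic precursors, rose by 5.97 ± 0.25, and the receptor kinase *Kit* by 2.33 ± 0.10. *Nxph1* and *Sorcs3*, which cortical interneurons also express, had log2 fold changes of -1.37 and -0.62.

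The cortical side was less uniform. Of 13 markers of cortical excitatory neurons 11 were lower (84.6%, beside 29.0% over all genes), with a median of -2.71, and *Nptx1* (neuronal pentraxin, 302, 386 and 341 CPM in cortex against 694, 704 and 710 CPM) and *Neurod2* were higher. *Camk2a*, the kinase subunit of forebrain excitatory synapses, fell from 4239, 3396 and 2705 CPM to 93.6, 98 and 100 CPM (-5.13 ± 0.17, adjusted p = 1.44e-07). *Slc17a7*, the vesicular glutamate transporter shared by cortical neurons and granule cells, fell only from 989, 1104 and 954 CPM to 511, 528 and 487 CPM (-1.01 ± 0.09), and it made up 98.0% of vesicular glutamate transporter TPM in cortex and 97.9% in cerebellum.

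Of 16 cortical layer markers 14 were lower (87.5%, beside 29.0% over all genes), and *Whrn* (0.91 ± 0.08) and *Nxph4* (1.70 ± 0.20) were higher. *Rasgrf2*, an exchange factor of upper layers, fell from 188, 218 and 198 CPM to 5.01, 4.19 and 3.32 CPM. *Rorb*, the nuclear receptor that marks the thalamic input layer, fell from 83.1, 110 and 86.1 CPM to 15.9, 15.4 and 16.9 CPM (-2.53 ± 0.11, adjusted p = 5.64e-07). *Fezf2*, which specifies subcortical projection neurons, counted 2092 fragments in cortex and 1 in cerebellum, a ratio of 2291 (411 to 90526). *Ntsr1*, a marker of corticothalamic neurons, counted 1196 and 2, a ratio of 655 (181 to 5413). *Foxp2*, *Tle4* and *Syt6*, which other cerebellar neurons also express, had log2 fold changes of -0.77, -1.01 and -0.81, and *Foxp2* overlapped between the regions, with 11.3, 21.8 and 34.4 CPM in cortex against 12.5, 11.3 and 12.7 CPM. *Syt6* lost its call with limma on log2(TPM + 1) (-0.50, adjusted p = 0.102). *Foxp2* was not called by DESeq2 (adjusted p = 0.169), with library size only (0.0557), in a fit of 3 regions (0.064) or by limma on log2(TPM + 1) (-0.33, adjusted p = 0.376).

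Of 19 cortical interneuron genes 14 were lower (73.7%, beside 29.0% over all genes) and 4 higher (21.1%, beside 28.3%). The higher genes were *Pvalb* (parvalbumin, 47.1, 38.9 and 28.2 CPM in cortex against 313, 318 and 343 CPM), *Reln* (reelin, 119, 160 and 217 CPM against 661, 628 and 586 CPM), *Gad1* (0.47 ± 0.10) and the vesicular GABA transporter gene *Slc32a1* (0.55 ± 0.13). *Gad2*, the other glutamate decarboxylase, went the other way (-0.56 ± 0.14, adjusted p = 0.0096), with 167, 198 and 321 CPM in cortex and 149, 138 and 163 CPM in cerebellum, where the high cortex library was that of animal 3. Its call was lost with limma on log2(TPM + 1) (-0.31, adjusted p = 0.179). *Sst*, *Vip* and *Lamp5* had log2 fold changes of -6.11, -8.34 and -7.15.

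Of 14 neuropeptide genes 13 were lower in cerebellum (92.9%, beside 29.0% over all genes), with a median of -5.05, and their summed CPM was 390, 425 and 466 in cortex against 87.1, 89.3 and 84.8. Most of what remained was *Penk*. *Cck* (cholecystokinin) had 118, 118 and 87.4 CPM in cortex against 17.5, 20.6 and 15.4 CPM (-2.60 ± 0.09). *Pdyn* (prodynorphin) fell from 29.1, 31.2 and 34.7 CPM to 0.191, 0.132 and 0.249 CPM (-7.37 ± 0.17). *Penk* (proenkephalin) did not pass the test, with 25.3, 75.1 and 152 CPM in cortex around 56.6, 55.7 and 57.3 CPM in cerebellum (-0.27 ± 0.40). It was lower with animal 1 left out (-0.92, edgeR adjusted p = 0.00414) and higher with animal 3 left out (0.34, adjusted p = 0.0371). *Penk* is also a striatal gene, and its level rose in the same order over the 3 cortices as the striatal sum, of which it is a member, given with the choroid plexus genes.

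Receptors for monoamines and acetylcholine were lower in 22 of 27 tested (81.5%, beside 29.0% over all genes) and higher in 1, with a median of -2.66. The muscarinic receptors *Chrm1* (166, 202 and 195 CPM in cortex against 0.518, 0.331 and 0.995 CPM) and *Chrm3* (66, 78.7 and 66.4 CPM against 1.74, 1.52 and 1.22 CPM) had log2 fold changes of -8.27 and -5.57, while *Chrm2* fell by 1.12 ± 0.16 (adjusted p = 6.04e-04). The beta adrenergic receptor *Adrb1* fell from 25.1, 28.7 and 21.4 CPM to 1.17, 1.48 and 1.2 CPM, and the serotonin receptors *Htr1a* and *Htr2a* had log2 fold changes of -6.92 and -4.36. *Adra2b*, an alpha2 adrenergic receptor, was the member that was higher, at 1.25, 1.15 and 1.56 CPM against 0, 0.224 and 0.9 CPM (2.25 ± 0.76, adjusted p = 0.0349). Its call was lost without the replicate block (adjusted p = 0.0721), which left 0 higher members.

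**Figure D3:**
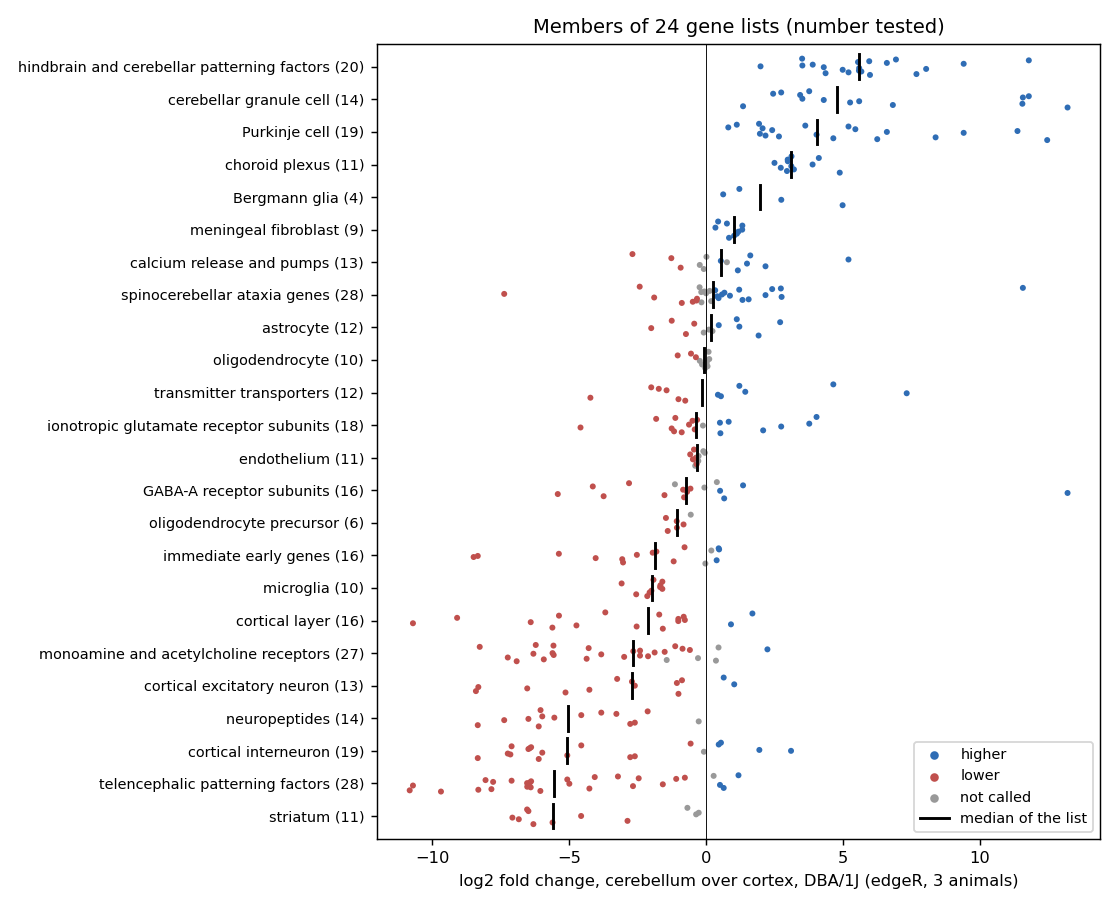
Log2 fold change of cerebellum over cortex for the tested members of 24 gene lists, with the number tested in brackets. Each point is a gene (blue higher, red lower, grey not called) and the black bar is the median of the list; hindbrain, granule cell and Purkinje cell genes sit to the right and telencephalic, interneuron and neuropeptide genes to the left.

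Within families of synaptic proteins the regions used different members, and the share of a family's summed TPM shows this apart from its total. For the alpha subunits of the GABA-A receptor, which set its kinetics and location, *Gabra6* made up 62.1% ± 0.79 in cerebellum and 0.016% ± 0.015 in cortex. Other alpha subunits lost their place: *Gabra3* went from 20.4% to 0.709%, *Gabra5* from 6.60% to 0.068% and *Gabra2* from 13.1% to 3.51%. In CPM, *Gabra3* had 158, 158 and 159 in cortex and 13.7, 9.4 and 13 in cerebellum (-3.74 ± 0.12, adjusted p = 1.28e-07), and *Gabra5*, the extrasynaptic subunit of forebrain, 34.7, 38.3 and 42.7 against 0.899, 1.17 and 0.655 (-5.42 ± 0.18). Of 16 GABA-A subunits tested, 4 were higher (beside 28.3% over all genes) and 9 lower (56.2%, beside 29.0%).

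The GluN2 subunits of the NMDA receptor, which bind glutamate and set its deactivation, shifted in the same manner. *Grin2c*, the GluN2C subunit of granule cells, made up 75.2% ± 1.86 in cerebellum and 11.2% ± 2.86 in cortex, while *Grin2b* went from 40.4% ± 2.75 to 1.88% ± 0.16. *Grin2b* had 566, 811 and 911 CPM in cortex against 33.9, 30.8 and 29.6 CPM (-4.59 ± 0.18, adjusted p = 3.13e-07), and *Grin2c* 39.4, 36.4 and 34.7 CPM against 262, 264 and 223 CPM (2.75 ± 0.08). The obligatory subunit *Grin1* had a log2 fold change of -0.41 ± 0.08, and its call was lost with limma on log2(TPM + 1) (-0.0923, adjusted p = 0.353).

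Among AMPA receptor subunits, *Gria4* rose from 10.5% ± 0.69 to 38.8% ± 0.88 of the family, and *Gria2*, the subunit that limits calcium entry, went from 49.9% ± 1.96 to 27.0% ± 0.61. *Gria4* had 140, 154 and 140 CPM in cortex and 620, 598 and 642 CPM in cerebellum (2.09 ± 0.09). Over the 18 ionotropic glutamate receptor subunits 7 were higher (38.9%) and 10 lower (55.6%), beside 28.3% and 29.0% over all genes.

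Of 7 metabotropic glutamate receptors tested, 2 were higher (28.6%, beside 28.3% over all genes) and 5 lower (71.4%, beside 29.0%). *Grm5*, found on dendrites of forebrain neurons, fell from 168, 218 and 290 CPM to 12.2, 12.4 and 11.4 CPM (-4.21 ± 0.16). *Grm4*, found on parallel fibre terminals, rose from 27.9, 31.4 and 42.3 CPM to 517, 522 and 432 CPM (3.86 ± 0.17). In the pathway by which Purkinje cells release calcium from stores, 8 of 9 genes were higher (88.9%, beside 28.3% over all genes), with a median of 2.18. *Itpr1*, the inositol trisphosphate receptor and the most abundant of them, had 4953, 4946 and 5197 CPM against 1101, 1143 and 1075 CPM (2.18 ± 0.11). *Homer3*, the scaffold that links receptor and store, had 178, 202 and 190 CPM against 4.84, 4.26 and 3.74 CPM (5.46 ± 0.12), and it made up 81.0% ± 2.80 of Homer TPM in cerebellum where *Homer1* made up 88.6% ± 3.38 in cortex. *Plcb4* and *Rgs8* rose by 1.94 and 3.63.

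The secreted cerebellins changed both in kind and in amount. In cortex *Cbln2* made up 67.9% ± 5.50 and *Cbln4* 19.7% ± 3.10 of the family. In cerebellum *Cbln1* and *Cbln3* made up 49.8% ± 0.41 and 50.1% ± 0.41. The summed TPM of the family was 45.7 in cortex and 1451 in cerebellum. *Cbln2* had 34.4, 38.5 and 28.6 CPM in cortex against 0.245, 0.199 and 0.316 CPM. Of 15 cerebellins, neurexins, neuroligins and related partners tested, 4 were higher (26.7%, beside 28.3% over all genes) and 8 lower (53.3%, beside 29.0%).

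**Figure D4:**
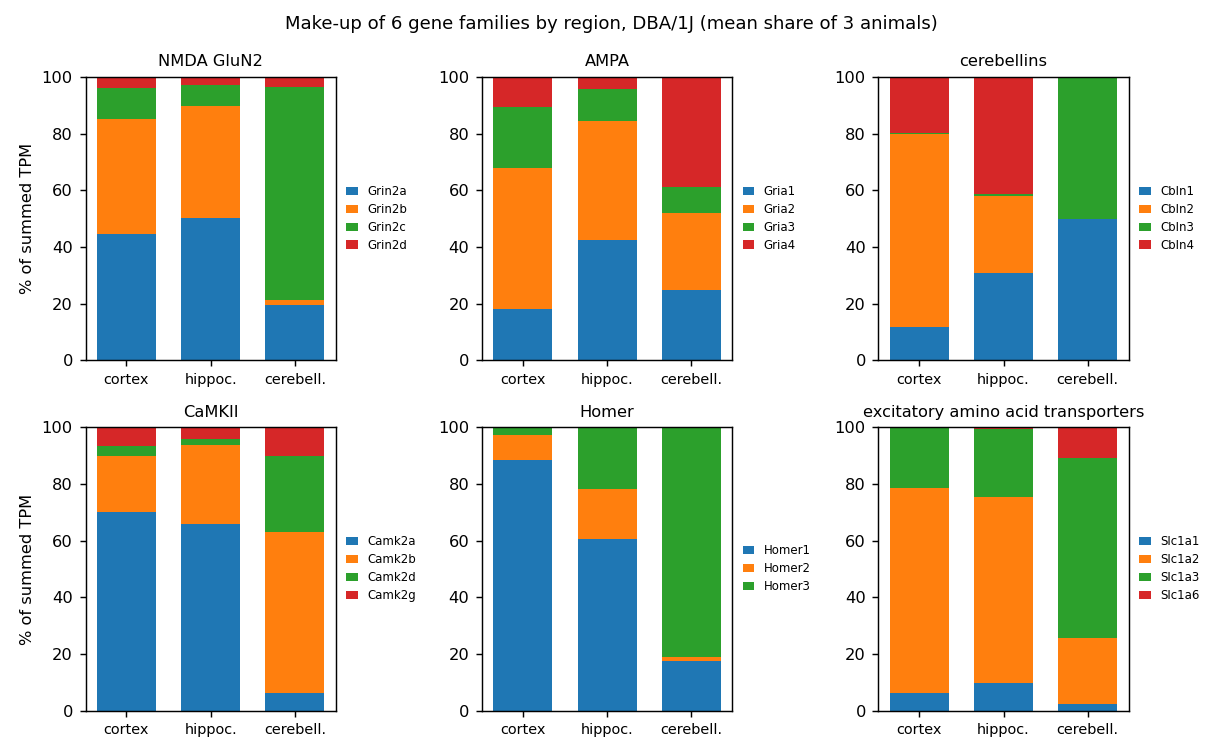
Share of each member in the summed TPM of 6 gene families, as the mean of the 3 DBA/1J animals, in cortex, hippocampus and cerebellum. Hippocampus shared the leading member of cortex in CaMKII, Homer and the excitatory amino acid transporters, and not in cerebellins. In AMPA receptors the leading member of hippocampus was undecided, as the 2 highest shares (42.4% ± 0.81 and 42.3% ± 0.62, SD, n = 3) overlapped. In GluN2 that of cortex was undecided in the same way (*Grin2a* 44.8% ± 2.73 and *Grin2b* 40.4% ± 2.75). In each of the 6 the highest shares in cerebellum were of other members than the highest in cortex.

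Of calmodulin-dependent kinases 8 of 11 were lower (72.7%) and 2 higher (18.2%), beside 29.0% and 28.3% over all genes. *Camk2a* went from 70.0% ± 6.75 of CaMKII TPM in cortex to 6.20% ± 0.064, and *Camk2d* from 3.52% ± 1.54 to 26.9% ± 0.83. *Camk2d* rose from 87, 96.3 and 157 CPM to 294, 274 and 294 CPM (1.38 ± 0.15), and *Camk4*, a nuclear kinase of granule cells, from 293, 391 and 435 CPM to 976, 866 and 925 CPM (1.31 ± 0.13). *Camkv*, a kinase-like vesicle protein of forebrain, fell from 304, 318 and 355 CPM to 3.87, 3.33 and 2.87 CPM (-6.62 ± 0.14). Among pumps, *Atp2a3*, a calcium pump of the endoplasmic reticulum, had 231, 255 and 248 CPM against 8.19, 5.95 and 5.67 CPM (5.21 ± 0.15), and *Atp2b4* and *Atp2b1* of the plasma membrane had log2 fold changes of -2.69 and -1.27.

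Of voltage-gated calcium channel subunits, *Cacna1a*, the P/Q-type channel, had 619, 666 and 584 CPM against 246, 269 and 222 CPM (1.34 ± 0.08) and *Cacna1g*, a T-type channel, 373, 404 and 404 CPM against 134, 147 and 119 CPM (1.56 ± 0.09). These were the 2 higher members of 9 tested, and 5 were lower, led by *Cacna1h*, another T-type channel, with 60, 62 and 78.7 CPM in cortex against 6.78, 5.4 and 5.33 CPM (-3.52 ± 0.14). Sodium channel genes were higher in 2 (22.2%) and lower in 5 (55.6%) of 9 tested, as were the calcium channel genes, beside 28.3% and 29.0% over all genes. *Scn3b* and *Scn3a* had log2 fold changes of -4.88 and -4.18, and *Scn2b* rose by 0.68. The median of the sodium channel list was -0.26, and it was 0.24 on log2(TPM + 1), where the median of all genes was also 0.24 and 2 of the 9 were lower. In H5/H5 mice it was -0.16 (-0.15 without their animal 3).

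Of 81 potassium channel genes 42 were lower (51.9%, beside 29.0% over all genes) and 20 higher (24.7%, beside 28.3%), with a median of -0.78. The median was -0.32 in H5/H5 mice (-0.34 without their animal 3), and in DBA/1J it was -0.25 on log2(TPM + 1), beside 0.24 for all genes. The modifier subunits *Kcnv1* (91.3, 126 and 107 CPM in cortex against 0.0817, 0.11 and 0.0904 CPM, -10.13 ± 0.14) and *Kcnf1* (111, 134 and 150 CPM against 0.382, 0.596 and 0.52 CPM, -8.04 ± 0.12) and the inward rectifier *Kcnj4* (84.4, 97.1 and 108 CPM against 0.109, 0.176 and 0.249 CPM, -9.05 ± 0.14) were among the most certain falls of all genes. *Kcnq5*, an M-current channel, fell from 120, 145 and 143 CPM to 1.83, 2.27 and 1.29 CPM. In the Kv3 family, which allows fast firing, *Kcnc1* had 621, 624 and 607 CPM against 215, 215 and 202 CPM (1.54 ± 0.08), while *Kcnc2* fell by 4.37 ± 0.09. *Kcng4*, a modifier subunit, was among the highest rises of the list (4.19 ± 0.17).

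Transporters that clear glutamate differed in direction. *Slc1a2*, the main astrocytic transporter of the forebrain, had 6277, 5153 and 4537 CPM in cortex against 1371, 1287 and 1323 CPM (-2.001 ± 0.12). *Slc1a3*, the transporter of Bergmann glia, rose from 679, 490 and 492 CPM to 1258, 1268 and 1323 CPM (1.22 ± 0.12), and *Slc1a6*, the Purkinje cell transporter, from 4.16, 3.81 and 4.34 CPM to 95.9, 109 and 108 CPM (4.65 ± 0.10). By share, *Slc1a2* made up 72.4% ± 1.53 of these transporters in cortex, and *Slc1a3* made up 63.5% ± 0.45 in cerebellum. The list of 12 transmitter transporters had 6 higher and 6 lower members, beside 28.3% and 29.0% over all genes.

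The nuclear receptors of the ROR family, to which the gene mutated in this series belongs, went in opposite directions. *Rora*, which Purkinje cells need to develop, had 631, 561 and 656 CPM against 140, 168 and 160 CPM (1.97 ± 0.10, adjusted p = 1.58e-06) and made up 63.5% ± 2.43 of the family in cortex and 91.0% ± 0.49 in cerebellum. *Rorb* went from 35.6% ± 2.50 to 2.32% ± 0.13. Of clock genes, which ROR and REV-ERB receptors regulate, 2 of 14 were higher (14.3%, beside 28.3% over all genes) and 7 lower (beside 29.0%). *Npas2*, the forebrain partner of *Bmal1*, fell from 36.5, 40.3 and 39 CPM to 2.78, 2.78 and 2.6 CPM (-3.84 ± 0.10), and *Cry1* rose from 15.3, 19.4 and 23.4 CPM to 39.3, 46.5 and 56 CPM (1.28 ± 0.08).

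Genes named for spinocerebellar ataxia were higher in 14, lower in 7 and not called in 7 of 28 tested, beside 28.3% higher and 29.0% lower over all genes. *Itpr1*, *Cacna1a*, *Cacna1g* and *Fat2* were among the higher. *Atxn1* (-0.88 ± 0.07), with 123, 138 and 140 CPM in cortex against 70.6, 74.1 and 73.9 CPM, and *Ppp2r2b* (-1.89 ± 0.08), with 113, 125 and 116 CPM against 31.3, 31.7 and 32.8 CPM, were lower.

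Immediate early genes, which neuronal activity induces, were lower in 11 of 16 (68.8%, beside 29.0% over all genes) and higher in 3 (18.8%, beside 28.3%), with a median of -1.88. In H5/H5 mice the median was -1.07 (-0.97 without their animal 3). *Arc* had 471, 565 and 225 CPM in cortex against 8.96, 9.02 and 10.5 CPM (-5.38 ± 0.29), and *Egr1* 421, 650 and 425 CPM against 37.5, 33.5 and 21.5 CPM (-4.03 ± 0.17). *Egr2* and *Egr3* had log2 fold changes of -8.49 and -8.34. *Jun* (0.39 ± 0.10), *Ier2* (0.48 ± 0.16) and *Dusp1* (0.46 ± 0.07) were higher, and *Ier2* was not called with animal 3 left out (adjusted p = 0.179). Without the replicate block neither *Ier2* (adjusted p = 0.232) nor *Dusp1* (0.262) was called, which left 1 higher member. The male, animal 3, had the lowest of the 3 values in 9 of the 16 genes in cortex, 12 in hippocampus and 15 in cerebellum, and sex cannot be told apart from the animal here. The summed CPM of the list was 506, 537 and 298 in cerebellum and 1622, 2156 and 1264 in cortex, so the regions did not overlap.

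All 10 microglial genes were lower in cerebellum, beside 29.0% over all genes, with a median of -1.96. *P2ry12*, a purinergic receptor of resting microglia, had 47.6, 43 and 39.9 CPM in cortex against 6.92, 7.21 and 8.25 CPM (-2.55 ± 0.11), and *Csf1r*, the receptor microglia need to survive, 97.6, 89.4 and 86.3 CPM against 22.9, 24.9 and 21.2 CPM (-1.99 ± 0.08). Every member stayed below 0 with library size only and on log2(TPM + 1). Oligodendrocyte precursor genes were lower in 5 of 6 (83.3%, beside 29.0% over all genes), with *Pdgfra*, the growth factor receptor of precursors, at 81.5, 68.4 and 69.2 CPM against 29.2, 28.6 and 25.7 CPM (-1.40 ± 0.08). Of 10 genes of mature oligodendrocytes 3 were lower (beside 29.0% over all genes) and 0 higher, with a median of -0.09 (0.06 without animal 1). In H5/H5 mice 6 of the 10 were higher and 2 lower, with a median of 0.26 (0.36 without their animal 3). Astrocyte genes were split: *Aqp4*, the water channel of astrocyte endfeet, rose from 135, 114 and 129 CPM to 469, 478 and 494 CPM (1.92 ± 0.09), *Agt* (angiotensinogen) rose by 2.71 ± 0.25, and *Gfap* and *Mfge8* had log2 fold changes of -0.73 and -1.25. *S100b* was listed at 0 in every library, which is not read as absence, since a listed 0 can be a failed estimate. Endothelial genes were lower in 6 of 11 (54.5%, beside 29.0% over all genes), with a median of -0.34. The count was 3 without animal 1, 4 without animal 2, 9 without animal 3, 4 with DESeq2, 2 with library size only and 0 with limma on log2(TPM + 1). In H5/H5 mice 4 were lower and 1 higher, with a median of -0.11 (2, 0 and -0.10 without their animal 3). None of the 5 blood genes was called.

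Cytosolic ribosomal protein genes were lower in 43 of 76 (56.6%, beside 29.0% over all genes) and higher in 0, with a median of -0.27. It was -0.14 with library size only, which called 26 lower and 1 higher, and -0.09 with limma on log2(TPM + 1), which called 18 lower and 4 higher, where the medians of all genes were 0.14 and 0.24. The 13 protein-coding genes of mitochondrial DNA were lower in 11 (84.6%, beside 29.0% over all genes), with a median of -0.55 (-0.33 without animal 1). In H5/H5 mice the median was -0.28 (-0.30 without their animal 3). *mt-Co1*, a cytochrome oxidase subunit, had 28796, 19402 and 16922 CPM in cortex against 14600, 13492 and 15602 CPM (-0.55 ± 0.18, edgeR adjusted p = 0.0309). *mt-Co1* lost its call with DESeq2 (adjusted p = 0.14), with library size only (0.0779), with limma on log2(TPM + 1) (0.191) and without animal 1 (0.117) or animal 2 (0.148). The cortex of animal 1 was the high library, with 8.10% of its counts from mitochondrial genes against 5.53% and 5.27% in the other cortices and 3.94% to 4.65% in cerebellum. The list had 4 lower members with DESeq2 and with limma on log2(TPM + 1), 8 with library size only, 7 without animal 1, 5 without animal 2 and 13 without animal 3. Of the nuclear genes named Nduf, most of which encode subunits of complex I, 18 of 37 were higher (48.6%, beside 28.3% over all genes) and 0 lower (median 0.22), led by *Ndufb2* (0.77 ± 0.08), with 31.2, 31.8 and 34.7 CPM in cortex and 55.0, 56.7 and 55.4 CPM in cerebellum. Differences in TPM were ranked among called genes with a symbol. By level per length, the largest rises in TPM after *Ttr*, *Pcp2* and *Itpr1* were those of *Aldoc*, *Pvalb*, *Ddx5*, an RNA helicase (560 to 1341 TPM, 1.02 ± 0.09), *Enpp2*, *Atp1b2*, a sodium pump subunit of glia (325 to 1076 TPM, 1.50 ± 0.11), and *Gabra6* and *Cbln3*. All 10 largest falls of this ranking were of mitochondrial RNAs or their nuclear copies, such as the ribosomal RNA *mt-Rnr1* (9833 to 4546 TPM, -1.32 ± 0.19). Nuclear pseudogenes of mitochondrial DNA share fragments with the mitochondrial genes, and their values are uncertain.

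Of 344 zinc finger genes whose symbol is Zfp and a number, 144 were higher (41.9%) and 44 lower, beside 28.3% and 29.0% over all genes, and their median was 0.24. *Zfp521*, a factor of progenitors, was the highest of the 344 at 3.91 and *Zfp831* the lowest at -8.93. Collagen genes were higher in 20 (46.5%) and lower in 16 (37.2%) of 43, beside the same 28.3% and 29.0%. *Col18a1*, whose end fragment is endostatin, rose from 3.86, 5.61 and 5.4 CPM to 88.6, 111 and 98.7 CPM (4.32 ± 0.10), *Col27a1* rose by 2.37 ± 0.10, and the fibril collagen *Col24a1* and the membrane collagen *Col25a1* had log2 fold changes of -4.88 and -4.45. Of 539 genes spanning over 300 kb 50.3% were lower and 27.5% higher, beside 26.7% and 24.1% of the 4128 genes under 10 kb. The median of the long genes was -0.33 in DBA/1J and -0.40 in H5/H5 mice (-0.42 without their animal 3), and in DBA/1J it was -0.21 with library size only and -0.07 on log2(TPM + 1), beside 0.14 and 0.24 for all genes.

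The summed level of 2 lists, of striatal and of choroid plexus markers, varied between animals. How much of either tissue the dissections held was not measured, and cerebellum too had counts of the striatal list. Striatal markers had a summed CPM of 191, 628 and 1213 in the cortex of animals 1, 2 and 3, between 256 and 266 in cerebellum, and between 1220 and 1284 in the cortex of H5/H5 mice. *Drd1*, a dopamine receptor of striatal projection neurons, had 10.4, 27.1 and 60 CPM in cortex against 0.545, 0.287 and 0.316 CPM. Of the 11 striatal genes 8 were lower (72.7%, beside 29.0% over all genes) and 3 not called. With animal 3 left out the same 8 were lower and 1 was higher, and with animal 1 left out all 11 were lower. *Rgs9*, a striatal regulator of G-protein signalling, *Tac1*, *Penk*, *Drd2* and *Adora2a* varied in the same order over the cortices. Their part in the falls of the lists of neuropeptides, receptors and cortical interneurons was not tested. The part of striatal tissue in the 52 genes present in cortex alone was not tested either.

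Choroid plexus genes, of the epithelium that makes cerebrospinal fluid, were higher in 11 of 11, beside 28.3% over all genes, with a median of 3.12. *Ttr* (transthyretin) had 1550, 1616 and 1165 CPM in cerebellum against 36.8, 444 and 7.31 CPM in cortex (4.89 ± 0.99, adjusted p = 0.0035), so animal 2 stood apart in cortex. The summed CPM of the list was 1825, 1888 and 1377 in cerebellum, 52.6, 532 and 25.03 in cortex and 2882, 903 and 3663 in hippocampus, where animal 2 was the low library. In H5/H5 cerebellum it was 708, 1039 and 17.4, and the list had a median of 1.33 there with 4 of 11 members called higher. Without the H5/H5 animal 3, whose cerebellum was the low library, the median was 1.86 and 9 of 11 were higher. *Enpp2*, an enzyme of lysophospholipids that choroid plexus secretes, moved with it, with 298, 571 and 227 CPM in cortex and 1456, 1475 and 1101 CPM in cerebellum. Genes of meningeal fibroblasts were higher in 9 of 9 (7 with DESeq2), beside 28.3% over all genes, by a median of 1.03. In H5/H5 mice the median was 0.45, and 6 of the 9 were called higher (0.44 and 5 without their animal 3). The DBA/1J animals had *Dcn* (decorin) at 23.9, 26.9 and 29.5 CPM against 9.96, 11 and 14.4 CPM (1.18 ± 0.10). The part of choroid plexus and meninges in the rises of other secreted and matrix genes was not tested. *Prl* (prolactin, a pituitary hormone), which was chosen after its values were seen, differed between animals more than between regions, with 34.0, 2.30 and 0 CPM in cortex and 16.6, 0.574 and 0.0226 CPM in cerebellum.

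**Figure D5:**
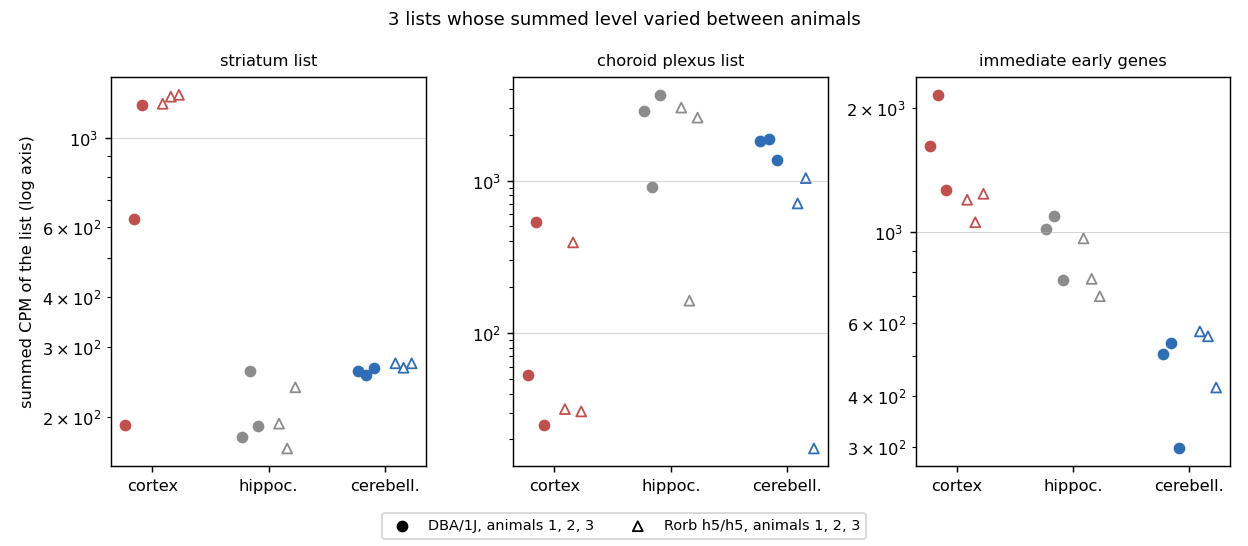
Summed CPM (log axis) of the striatum list, the choroid plexus list and the immediate early genes in each library, with filled circles for DBA/1J and open triangles for H5/H5 animals 1, 2 and 3 from left to right. The striatal sum runs from 191 to 1213 over the DBA/1J cortices, and the choroid plexus sum from 25.03 to 532.

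In the H5/H5 mice, which share no library with the comparison above, 5528 of 17288 genes were higher in cerebellum (32.0%) and 5671 lower (32.8%). Of the DBA/1J higher genes, 4854 were tested there and 4383 were called higher, and of the lower genes 4598 of 4960 were called lower. Opposite calls were 0 among the higher and 4 among the lower. The 8985 genes called in both had a median absolute difference in log2 fold change of 0.125, and without the H5/H5 animal 3 it was 0.143 over 8488 genes. *Cbln3* was 11.17 in H5/H5 and 11.56 in DBA/1J mice, *Neurod1* 5.30 and 5.27, *Itpr1* 2.32 and 2.18, *Icam5* -8.28 and -8.64, *Camk2a* -4.78 and -5.13, and *Rorb* -2.69 and -2.53. Without the H5/H5 animal 3 the H5/H5 values were 11.13 for *Cbln3*, 5.29 for *Neurod1*, 2.35 for *Itpr1*, -8.14 for *Icam5*, -4.71 for *Camk2a* and -2.66 for *Rorb*. The test of the difference itself, the interaction of region and genotype, called 0 of 18033 genes with edgeR (0.0%), with 1230 at an unadjusted p under 0.05 and a lowest adjusted p of 0.121. DESeq2 called 40 genes for the same term. Without the H5/H5 animal 3, edgeR called 5040 genes higher and 5231 lower in H5/H5 cerebellum, and 4136 of 4869 higher and 4346 of 4979 lower DBA/1J genes had the same call, with 2 and 4 opposite calls. Without that animal the interaction called 1 gene, and without the DBA/1J animal 3 it called 44.

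The hippocampus of the same animals gives a measure of how far the regions lay apart. Hippocampus against cortex called 3815 of 17166 genes (22.2%), and cerebellum against hippocampus 10826 of 17332 (62.5%). These comparisons share libraries with cerebellum against cortex and are given only side by side. As log2 fold changes of cerebellum over hippocampus and of hippocampus over cortex, *Fat2* had 9.88 and 1.67, *Neurod1* 4.28 and 1.01, *Itpr1* 3.06 and -0.86, *Icam5* -9.29 and 0.69, and *Lamp5* -4.49 and -2.63. *Tbr1* had a mean of 58.0 CPM in hippocampus and *Smim43* 3.58 CPM, so cortical genes differed among themselves in how far hippocampus shared them.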

How the data were processed

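RNA of cortex, hippocampus and cerebellum, dissected from hemisected brains, was sequenced as poly(A) libraries (150 bp paired-end). The authors trimmed reads with Trim Galore, checked them with FastQC, aligned them with STAR to GRCm38 and quantified genes with RSEM. The use of strand is not given in the sources used here, so overlapping and antisense genes cannot be told apart. The deposited values used were expected counts, rounded here to whole numbers, and TPM, the authors' level per transcript length. Gene symbols were matched by Ensembl ID to GENCODE M39 for 41407 of 45706 genes, and positions by symbol to RefSeq GRCm38.p6.

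Genes passing filterByExpr were tested with edgeR 4.0.16 in R 4.3.3 (TMM scaling, quasi-likelihood test, animal as a block, Benjamini-Hochberg adjusted p under 0.05). The animal identifier is the same for all regions of an animal. Deviations of cortex and cerebellum from their group means correlated within an animal by 0.01, 0.073 and 0.123 in DBA/1J and by 0.242, 0.199 and 0.175 in H5/H5 mice. Between different animals the correlations ran from -0.117 to 0.061 in DBA/1J and from -0.177 to -0.022 in H5/H5 mice. In DBA/1J the values within and between animals thus overlapped. DESeq2 1.42.0, limma 3.58.1 on log2(TPM + 1), other scalings and filters, a fit without the block, a fit of 3 regions and leaving out each animal were the alternatives.

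Genes named are members of fixed lists, the 15 largest differences per direction with 10 CPM or more and the same direction in 3 animals, the 5 smallest p-values and the 10 largest TPM differences per direction. The rankings were taken among called genes with a symbol. Members and lists were chosen with earlier results of these data known, and promoters and genes present in 1 region were described beyond that rule. A gene with 0 counts in a region was given a floor of 3 counts over the group, and intervals cover counting error only. A list member with 0 or few counts in a region passed the filter through the other region alone, so its direction was set in advance. Some genes are not reported here.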

Additional observations from a re-analysis of the deposited data

How the results depend on the processing

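With the replicate block left out, edgeR called 4955 genes higher and 5107 lower in cerebellum, and of the named genes *Adra2b*, *Dusp1*, *Ier2* and *Prl* lost their call, while the interaction called 1 gene. With limma on log2(TPM + 1) the lower count was 2945. With it the lower members were 6 ionotropic glutamate receptor, 4 spinocerebellar ataxia, 4 clock and 24 zinc finger genes, the higher ones were 5 clock and 32 Nduf genes, and 5 of 8 striatal genes tested were lower. Library size only gave 28 higher Nduf genes. Leaving out each animal gave 3645 to 4858 higher and 4159 to 4888 lower genes in DBA/1J, and 4585 to 5178 higher and 4885 to 5477 lower genes in H5/H5 mice. The interaction gave 40 genes with DESeq2, 44 at most and 0 at least when 1 animal of either genotype was left out, and 1 without the H5/H5 animal 3. Of 172 named genes that were called, 163 kept call and direction under every alternative run, 9 lost the call under at least 1 and 0 changed direction. *mt-Co1* lost it under 5 of them and *Gad2* with limma. *Penk*, which was not called, changed sign without animal 3 (0.34) and on log2(TPM + 1) (0.0116), and leaving out an animal gave values from -0.92 to 0.34. The cause of these changes was not tested. A group of 3 animals of both sexes, the spread of striatal and choroid plexus markers between animals and few counts in genes near 0 limit the precision.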
